A study of Mus musculus with 9 samples.

Results

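Csf1r, Lyz2, Ly86, Cd14, C1qa, C1qb, Fcgr1, Adgre1 and Cd68 are genes by which monocytes and macrophages are commonly recognised, and their levels were followed here in sorted natural killer (NK) cells of mice. All probe sets that the platform annotation gives to 1 of these symbols alone were taken, which gave 14 of the 45101 probe sets on the array and 9 of the 18193 genes that have such a probe set. A probe set is a group of short oligonucleotides designed against a transcript, whose signals are combined into 1 intensity. Of the 14, 10 probe sets of 7 genes passed a filter on low intensity (a mean log2 intensity equal to an intensity of at least 47.7) and were tested together with all 27022 probe sets that passed it. The 4 left untested were the only probe sets of Cd14 and Cd68 and 1 of the probe sets of C1qb and of Fcgr1. All 14 stayed above the floor of 16 on all 9 arrays.

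The arrays held RNA of sorted NK cells from NKDxIL15tg bone marrow, NKDxIL15tg spleen and IL15tg spleen, with 3 biological replicates a group. All groups carry the IL15tg transgene, which supplies the cytokine IL-15 that NK cells need to survive, so no group had cells without it. NKD mice are a transgenic line short of mature NK cells, and the series' design text calls the NKDxIL15tg cells immature and the IL15tg cells mature. Immaturity and the NKD genotype therefore cannot be told apart, and bone marrow against IL15tg spleen differs in organ as well. The promoter of the IL15tg transgene and the surface markers of the sort are not given in the sources used here. Nor are the age of the mice and the number of animals behind a replicate. The p-values set a difference of group means against the spread between these samples. How far they reach beyond these samples is not known.

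Csf1r is the receptor for the growth factors CSF1 and IL-34, on which most monocytes and macrophages depend, and its promoter is a classical target of PU.1 (Spi1) and the C/EBP factors. The other genes serve the work of these cells. Lyz2 (lysozyme M) digests bacterial cell walls. Cd14 hands lipopolysaccharide to TLR4, while Ly86 (MD-1) pairs with the TLR relative Cd180 and is also found on B cells and dendritic cells. C1qa and C1qb are chains of C1q, the first component of the classical complement pathway, which macrophages and dendritic cells make. Fcgr1 (CD64) is the high-affinity receptor for IgG, Adgre1 is the surface protein F4/80, and Cd68 is a glycoprotein of lysosomes. NK cells are lymphocytes and are not known for this programme, although they share single genes with myeloid cells.

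The promoters of Lyz2, Ly86 and C1qb are shown because Lyz2 and Ly86 differed between groups in opposite directions and C1qb belongs to the C1q chains described further on. Each is the 250 bases before the gene's start, from RefSeq on GRCm38.p6, written 5′ to 3′ on the gene's strand, with matches to the searched motifs in capitals. The Lyz2 window is chr10:117282273-117282522 on the minus strand, the Ly86 window is chr13:37345095-37345344 on the plus strand, and the C1qb window is chr4:136886201-136886450 on the minus strand.
Lyz2: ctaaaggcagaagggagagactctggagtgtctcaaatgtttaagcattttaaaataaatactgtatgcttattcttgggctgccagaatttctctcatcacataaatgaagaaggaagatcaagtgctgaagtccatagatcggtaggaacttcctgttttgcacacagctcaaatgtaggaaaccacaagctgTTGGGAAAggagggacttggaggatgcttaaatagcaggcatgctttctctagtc
Ly86: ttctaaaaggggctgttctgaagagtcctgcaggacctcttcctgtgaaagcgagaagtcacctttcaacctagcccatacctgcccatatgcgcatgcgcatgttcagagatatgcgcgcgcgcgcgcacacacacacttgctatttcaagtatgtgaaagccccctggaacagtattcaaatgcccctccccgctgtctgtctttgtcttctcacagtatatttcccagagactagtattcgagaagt
C1qb: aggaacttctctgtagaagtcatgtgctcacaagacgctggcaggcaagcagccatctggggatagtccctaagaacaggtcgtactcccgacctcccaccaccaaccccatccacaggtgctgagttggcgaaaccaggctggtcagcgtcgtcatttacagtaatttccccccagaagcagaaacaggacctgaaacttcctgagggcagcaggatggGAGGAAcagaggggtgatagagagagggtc
GAGGAA, the core bound by PU.1, and TTNNGNAA, a short form of the C/EBP site, were searched on both strands. The C1qb window held GAGGAA 30 to 25 bases before the start, and the Lyz2 window held the C/EBP form as TTGGGAAA 55 to 48 bases before the start. The Ly86 window held neither. Among 32851 promoter windows of the same length, 23.2% held GAGGAA and 36.9% held TTNNGNAA, so these matches are common and are a description of the letters only.

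NK cell markers were present on every array. The summed intensity of the 11 NK marker genes with a probe set, such as Ncr1 and Klrd1, was 24953 to 27288 in NKDxIL15tg bone marrow, 30444 to 33955 in NKDxIL15tg spleen and 40883 to 42595 in IL15tg spleen. Markers of other blood cells were there too, and 0 genes of the marker lists were under the floor on every array. The 14 neutrophil markers summed to 12363 to 31438 in bone marrow, 3183 to 8244 in NKDxIL15tg spleen and 750.3 to 1061 in IL15tg spleen. Bone marrow replicate 3 stood apart, with a mean rank correlation of 0.877 with its own group, against 0.916 to 0.976 for the other 8 arrays. On it, 2080 tested probe sets (7.70%) were more than 2-fold above all the other arrays, while no other array had more than 6. Of the 84 log2 changes recomputed in the comparisons with bone marrow, 3 lost their call without it and 1 gained one, and these are given beside the genes concerned. In such bulk samples, fewer cells of a type and less RNA per cell cannot be told apart.

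Most of these genes showed no difference between the groups past the threshold, and the calls lay in Lyz2 and Ly86. Between NKDxIL15tg spleen and IL15tg spleen, 0 of the 10 tested probe sets were higher and 1 (Ly86) was lower, where 6.75% of all tested probe sets were higher and 7.04% lower (13.8% together; limma, adjusted p under 0.05). Between NKDxIL15tg bone marrow and NKDxIL15tg spleen, limma called 0 of the 10, against 0.0111% of all tested probe sets higher and 0.0407% lower (0.0518% together, or 14 probe sets, and 23 with the replicate number as a block), and 3 of the 10 had an unadjusted p under 0.05, against 10.4% of all. Between NKDxIL15tg bone marrow and IL15tg spleen, 1 was higher (Lyz2) and 1 lower (Ly86), against 9.79% of all tested probe sets higher and 11.5% lower (21.3% together). The count of members called was thus close to the array-wide share in each comparison. The 3 comparisons share arrays with each other, so a gene that differs in more than 1 of them is not seen independently.

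The median log2 change over the 10 tested probe sets was 0.07 in NKDxIL15tg spleen against IL15tg spleen, -0.13 in bone marrow against NKDxIL15tg spleen and -0.08 in bone marrow against IL15tg spleen. Over all tested probe sets these medians were -0.00, 0.02 and 0.08. The share of members whose groups did not overlap was near or below that of the whole array. In NKDxIL15tg against IL15tg spleen 2 of the 10 did not overlap (38.1% of all tested probe sets), in bone marrow against NKDxIL15tg spleen 2 (16.1%), and in bone marrow against IL15tg spleen 4 (42.9%).

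**Figure D1:**
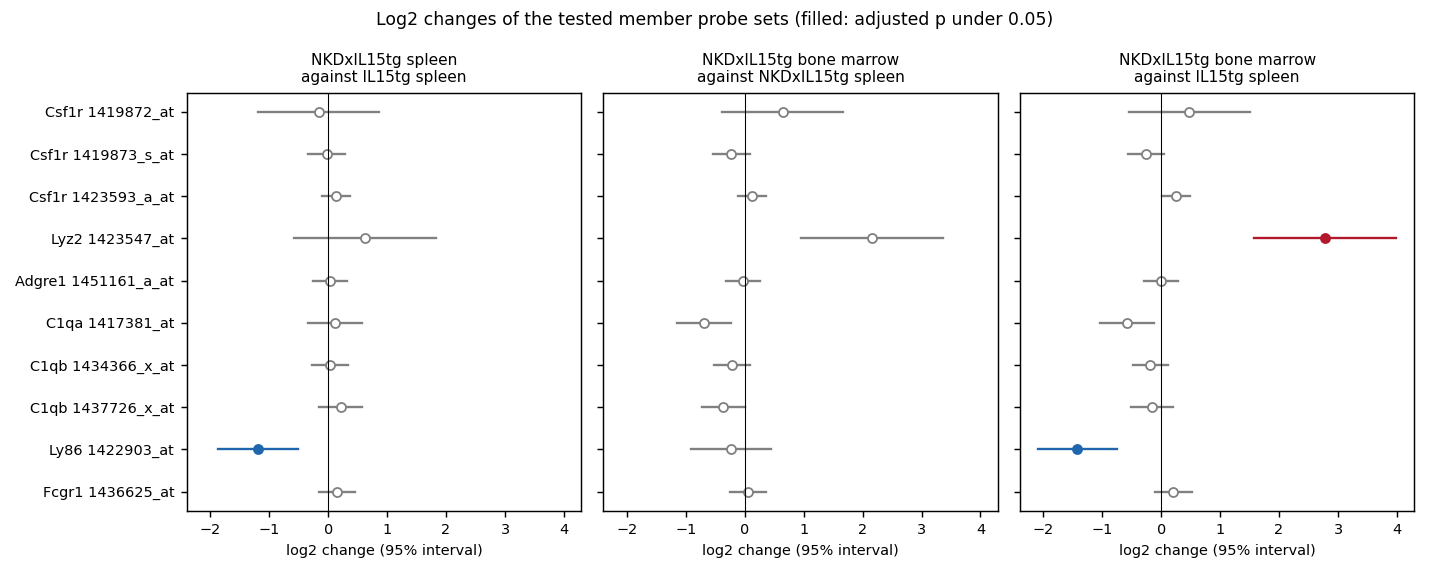
Log2 change of the 10 tested probe sets of the monocyte and macrophage genes in each of the 3 comparisons, with 95% confidence intervals from limma. Filled points have an adjusted p under 0.05. Lyz2 in bone marrow against IL15tg spleen (2.79) and Ly86 in both comparisons with IL15tg spleen (-1.42 and -1.19) were the values past the threshold.

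Lyz2 varied most among the 14 probe sets, its highest array being 21.1 times its lowest. Its intensity was 228, 450 and 1293 in the 3 bone marrow replicates, 80.6, 119 and 154 in the NKDxIL15tg spleen replicates and 61.3, 78.3 and 84.3 in the IL15tg spleen replicates. The bone marrow values lay above all 6 spleen values, and the 2 spleen groups overlapped. Bone marrow averaged 657 ± 562 and IL15tg spleen 74.6 ± 11.9 (SD, n = 3 each), and the log2 change of 2.79 ± 0.53 (SE), or 6.89-fold, passed in limma (adjusted p = 0.00697). Without bone marrow replicate 3 the change was 2.11 (adjusted p = 0.00153), and over all alternatives run the adjusted p ranged from 0.00153 to 0.0353.

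Against NKDxIL15tg spleen, which averaged 118 ± 36.8 (SD, n = 3), Lyz2 in bone marrow had a fitted ratio of 4.47 (2.16 ± 0.53 on the log2 scale). This did not pass in limma (adjusted p = 0.337). Its 95% confidence interval, which is not adjusted for the number of probe sets, ran from 0.95 to 3.37. NKDxIL15tg spleen against IL15tg spleen gave 0.62 ± 0.53, with a 95% confidence interval from -0.58 to 1.83 (adjusted p = 0.526). Lyz2 is also a gene of neutrophils, and its levels lay in the same order as the summed neutrophil markers over the 6 NKDxIL15tg arrays, though not over the 3 IL15tg arrays. All 14 neutrophil markers with a probe set were tested, and 13 were higher in bone marrow than in IL15tg spleen (11.5% of all genes). S100a8, a calcium-binding protein of neutrophils and monocytes, was at 3643, 5666 and 6955 in bone marrow, 941, 1435 and 3043 in NKDxIL15tg spleen and 137, 83.3 and 222 in IL15tg spleen. The part of these cells in the Lyz2 result was not tested.

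Lyz1, the near-identical paralog of Lyz2, followed the same order of groups. Its brightest probe set had 718, 1493 and 3175 in bone marrow, 228, 296 and 528 in NKDxIL15tg spleen and 148, 218 and 235 in IL15tg spleen. In bone marrow against IL15tg spleen its log2 change was 2.94 ± 0.50 (adjusted p = 0.00417), and 2.40 without bone marrow replicate 3 (adjusted p = 0.00217). This probe set is of a kind that can bind transcripts of related genes, so how much of its signal belongs to Lyz2 is uncertain. Whether the Lyz2 probe set also reads Lyz1 was not tested.

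Ly86 ran the other way, with its highest values in IL15tg spleen. It was at 64.9, 140 and 87.0 in bone marrow, 91.8, 111 and 125 in NKDxIL15tg spleen and 177, 270 and 318 in IL15tg spleen. All 3 IL15tg arrays lay above all 6 NKDxIL15tg arrays, while the NKDxIL15tg groups overlapped. Bone marrow was lower than IL15tg spleen by a log2 change of -1.42 ± 0.30 (adjusted p = 0.0104), and this call held under all alternatives run, with an adjusted p from 0.00385 to 0.0436. NKDxIL15tg spleen was lower than IL15tg spleen by -1.19 ± 0.30 (adjusted p = 0.0301), with means of 109 ± 16.6 and 255 ± 71.5 (SD, n = 3 each).

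The spleen difference of Ly86 was close to the threshold. Its adjusted p became 0.0660 with a floor of 64, 0.0653 without the filter, 0.103 without IL15tg replicate 2, 0.108 without IL15tg replicate 3, 0.0921 without NKDxIL15tg spleen replicate 1 and 0.0858 without NKDxIL15tg spleen replicate 2. Bone marrow against NKDxIL15tg spleen gave -0.23 ± 0.30, with a 95% confidence interval from -0.90 to 0.44 (adjusted p = 0.747).

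Markers of B cells and dendritic cells, which also carry Ly86, differed between the groups as well. The 7 B cell markers with a probe set summed to 511, 573 and 2166 in the bone marrow replicates, 616 to 695 in NKDxIL15tg spleen and 990 to 1652 in IL15tg spleen. Of the 6 tested, 4 were lower in each NKDxIL15tg group than in IL15tg spleen, where 8.70% (bone marrow) and 4.87% (NKDxIL15tg spleen) of all genes were lower. The 10 dendritic cell markers with a probe set summed to 1386 to 1924, 2039 to 2299 and 2975 to 5354 in the same 3 groups. Of the 9 tested, 3 were lower in each NKDxIL15tg group than in IL15tg spleen, against the same shares of all genes. The median log2 change of the 9 was -0.02 in NKDxIL15tg spleen and 0.09 in bone marrow, so the fall was not shared by the whole list. Over the 3 IL15tg arrays Ly86 lay in the same order as both sums, and over the 6 NKDxIL15tg arrays it did not. The part of these cells in the Ly86 result was not tested.

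**Figure D2:**
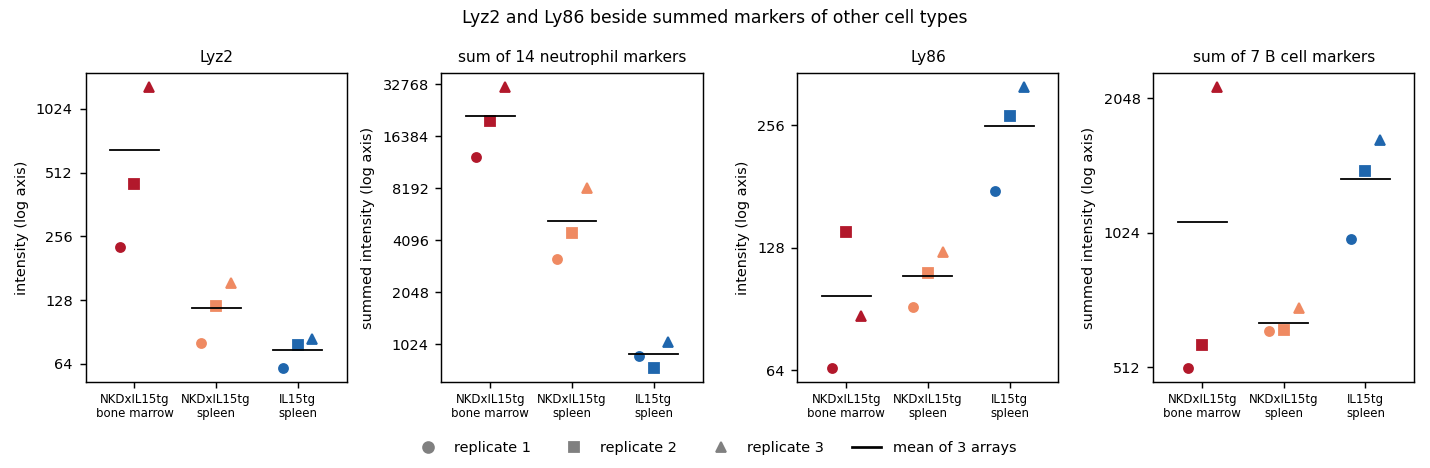
Intensity (log axis) of Lyz2 and Ly86 on each of the 9 arrays, beside the summed intensity of the neutrophil and the B cell markers on the same arrays; each point is 1 array and each line the mean of 3. Lyz2 was highest in NKDxIL15tg bone marrow (228 to 1293) and Ly86 in IL15tg spleen (177 to 318).

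Csf1r has 3 probe sets, all tested, and they disagreed. Probe set 1419872_at had 634, 656 and 2600 in bone marrow, 652, 616 and 709 in NKDxIL15tg spleen and 726, 731 and 755 in IL15tg spleen. Bone marrow replicate 3 was 3.45 times the highest of the other 8 arrays, whose values ran from 616 to 755. Its log2 change in bone marrow was 0.64 ± 0.46 against NKDxIL15tg spleen (adjusted p = 0.536) and 0.48 ± 0.46 against IL15tg spleen (adjusted p = 0.459). Without bone marrow replicate 3 both changed sign, to -0.03 (adjusted p = 0.963) and -0.19 (adjusted p = 0.240).

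The other Csf1r probe sets did not show the high value of that array. Probe set 1423593_a_at had 117, 132 and 130 in bone marrow, 108, 125 and 114 in NKDxIL15tg spleen and 111, 100.4 and 106 in IL15tg spleen. Bone marrow lay above IL15tg spleen on it without overlap, by a log2 change of 0.26 ± 0.11 that did not pass (adjusted p = 0.118). Probe set 1419873_s_at had 73.8, 82.9 and 64.1 in bone marrow, 94.6, 89.4 and 74.5 in NKDxIL15tg spleen and 80.9, 91.3 and 90.7 in IL15tg spleen, and bone marrow replicate 3 was its lowest value, at 0.678 times the highest of the other arrays. The name of this last probe set marks it as one that can bind more than 1 transcript.

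In NKDxIL15tg against IL15tg spleen, probe set 1419872_at of Csf1r had groups without overlap but a log2 change of only -0.16 ± 0.46 (adjusted p = 0.893). Bone marrow replicate 3 widens the spread that all groups share in the fit, and without it the adjusted p was 0.277. The other Csf1r probe sets were at -0.03 and 0.13. The 95% confidence interval of 1423593_a_at ran from -0.11 to 0.37.

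Csf1, the gene of the ligand of Csf1r, showed the same split between probe sets on bone marrow replicate 3. Its brightest probe set had 141, 171 and 943 in bone marrow, 155, 132 and 173 in NKDxIL15tg spleen and 146, 154 and 160 in IL15tg spleen, and no comparison passed. Its other tested probe set had 109, 102 and 117 in bone marrow, against 84.7, 80.9 and 87.5 in IL15tg spleen (log2 change 0.37, adjusted p = 0.0340, but 0.0655 without bone marrow replicate 3). This call was lost in 8 alternatives. Of the 10 tested member probe sets, Csf1r 1419872_at and Lyz2 were more than 2-fold above the other 8 arrays on bone marrow replicate 3, and of the 60 tested genes of the wider macrophage lists, 5 were (Csf1, Myd88, Msr1, Trem2 and Lyz1).

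**Figure D3:**
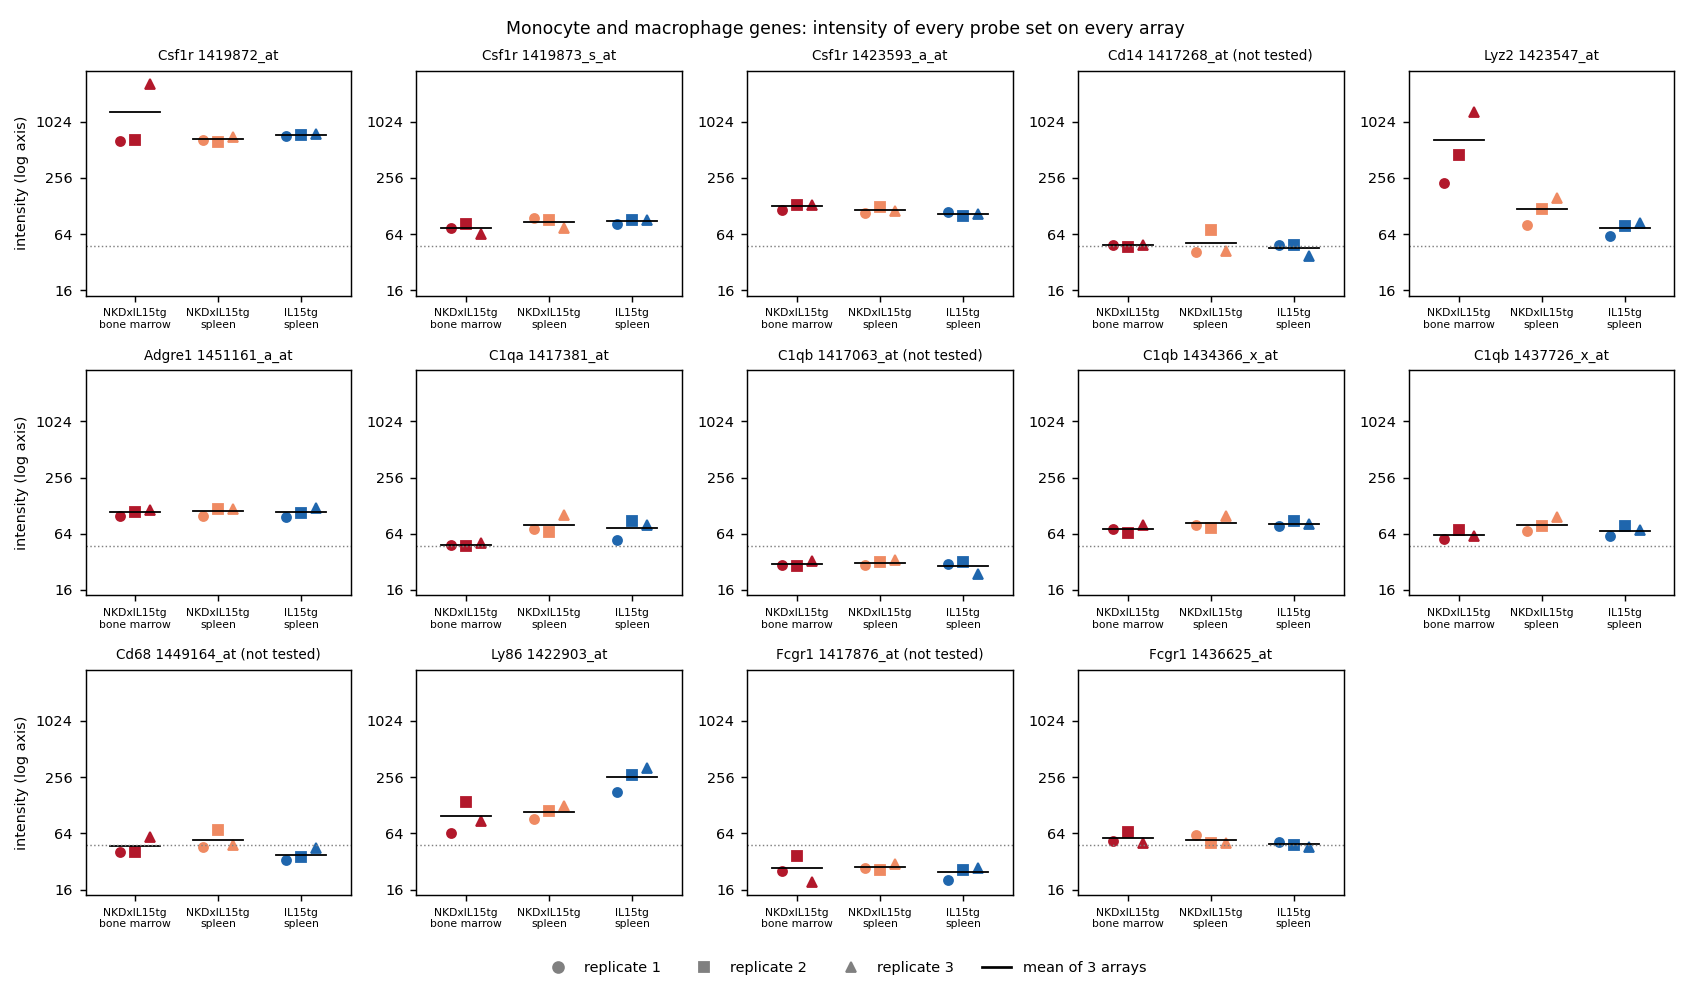
Intensity (log axis) of all 14 probe sets of the 9 monocyte and macrophage genes on each array; each point is 1 array, each line the mean of 3, and the dotted line the filter at 47.7. The single high Csf1r point is bone marrow replicate 3 on probe set 1419872_at (2600), which the other Csf1r probe sets do not share.

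C1qa had its lowest values in bone marrow, without passing the test. It had 47.9, 47.2 and 51.3 in bone marrow, 71.5, 67.0 and 101 in NKDxIL15tg spleen and 55.4, 87.0 and 79.4 in IL15tg spleen. All 3 bone marrow arrays lay below all 6 spleen arrays. The log2 change in bone marrow was -0.69 ± 0.20 against NKDxIL15tg spleen (adjusted p = 0.383) and -0.58 ± 0.20 against IL15tg spleen (adjusted p = 0.0738). The second of these passed with quantile normalization between arrays (adjusted p = 0.0446) and without IL15tg replicate 1 (adjusted p = 0.0367). It passed in no other alternative, and over all of them its adjusted p ranged from 0.0367 to 0.381. All 3 bone marrow values were near the filter intensity of 47.7 and under the alternative floor of 64, so the size of the change is uncertain.

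C1qb has 3 probe sets, of which 2 were tested, both of a kind that can bind transcripts of related genes. On 1437726_x_at it had 56.5, 69.4 and 59.9 in bone marrow, 67.9, 76.8 and 96.2 in NKDxIL15tg spleen and 60.1, 77.6 and 69.7 in IL15tg spleen, and all groups overlapped. On 1434366_x_at it had 71.6, 65.5 and 78.4 in bone marrow, 79.4, 74.3 and 97.9 in NKDxIL15tg spleen and 77.4, 87.2 and 80.6 in IL15tg spleen. Bone marrow against NKDxIL15tg spleen gave -0.36 ± 0.16 and -0.22 ± 0.13 (adjusted p = 0.477 and 0.500), and bone marrow against IL15tg spleen gave -0.16 ± 0.16 and -0.19 ± 0.13 (adjusted p = 0.489 and 0.318). The untested 1417063_at lay between 23.5 and 33.2 on all arrays.

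C1qc, the third chain of C1q, is not among the 9 genes and was measured by 1 probe set. It had 36.0, 42.4 and 41.8 in bone marrow, 67.3, 71.8 and 85.7 in NKDxIL15tg spleen and 59.7, 71.3 and 59.2 in IL15tg spleen. The bone marrow arrays again lay below all spleen arrays. Against IL15tg spleen the log2 change of -0.66 ± 0.13 passed (adjusted p = 0.00934), but with a floor of 64 it was -0.05 (adjusted p = 0.732). Against NKDxIL15tg spleen it was -0.90 ± 0.13 (adjusted p = 0.108). NKDxIL15tg against IL15tg spleen gave 0.24 (adjusted p = 0.298), beside 0.11 for C1qa (adjusted p = 0.809).

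**Figure D4:**
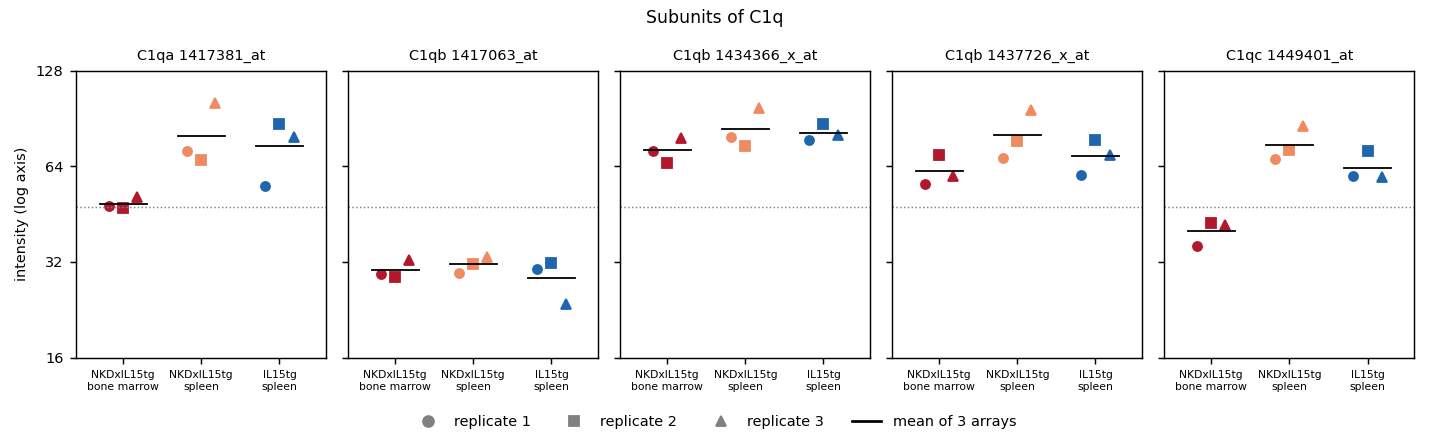
Intensity (log axis) of the C1q chains C1qa, C1qb (all 3 probe sets) and C1qc on each array; each point is 1 array, each line the mean of 3, and the dotted line the filter at 47.7. On C1qa (47.2 to 51.3) and C1qc (36.0 to 42.4) all bone marrow arrays lie below all spleen arrays.

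Adgre1 overlapped between all groups. Its single probe set had 99.6, 110 and 115 in bone marrow, 98.1, 117 and 118 in NKDxIL15tg spleen and 97.2, 107 and 122 in IL15tg spleen. The log2 changes were 0.03, -0.03 and -0.01 in the 3 comparisons, each with a standard error of 0.13. The 95% confidence intervals all lay between -0.32 and 0.32. The highest array was 1.26 times the lowest, which for Ly86 was 4.89 times.

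Fcgr1 did not pass either. The tested probe set 1436625_at had 53.3, 65.6 and 50.5 in bone marrow, 61.6, 50.3 and 50.4 in NKDxIL15tg spleen and 51.8, 48.5 and 45.8 in IL15tg spleen. Its log2 changes were 0.15 in NKDxIL15tg against IL15tg spleen, 0.06 in bone marrow against NKDxIL15tg spleen and 0.21 in bone marrow against IL15tg spleen, with a standard error of 0.14 each and the lowest adjusted p at 0.296. The untested 1417876_at lay between 19.2 and 37.0.

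Cd14 and Cd68 fell under the filter and have values without a test. Cd14 had 49.2, 46.9 and 49.2 in bone marrow, 40.6, 71.5 and 41.9 in NKDxIL15tg spleen and 48.5, 49.1 and 37.6 in IL15tg spleen. Cd68 had 40.9, 40.7 and 57.9 in bone marrow, 45.5, 70.1 and 48.0 in NKDxIL15tg spleen and 33.1, 35.6 and 44.6 in IL15tg spleen. Both had their highest value on NKDxIL15tg spleen replicate 2. The NKDxIL15tg spleen arrays lay above the IL15tg spleen arrays without overlap for Cd68 and overlapped with them for Cd14.

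Summed without Csf1r and Lyz2, the other 7 genes came to 427 to 515 in bone marrow, 489 to 582 in NKDxIL15tg spleen and 540 to 728 in IL15tg spleen, each gene by its brightest probe set. The bone marrow range lay below the IL15tg range, and the middle group overlapped with both. Without Ly86 the remaining 6 genes came to 363 to 402 in bone marrow, 397 to 457 in NKDxIL15tg spleen and 363 to 414 in IL15tg spleen, so the ranges of bone marrow and IL15tg spleen then overlapped. With Csf1r and Lyz2 included, bone marrow ran from 1289 to 4382, the upper end being replicate 3.

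Around the 9 genes, 89 further genes of macrophage and monocyte biology were listed in 6 groups, and 60 passed the filter, each by its brightest probe set. In NKDxIL15tg against IL15tg spleen 2 of the 60 were higher and 8 lower, where 7.65% and 4.87% of all genes tested this way were higher and lower. In bone marrow against NKDxIL15tg spleen limma called 0 of the 60 (0.0232% of all genes higher and 0.0464% lower), while 16 had an unadjusted p under 0.05 (10.9% of all genes). With the replicate number as a block, 1 of the 60 was called (Mgst1). In bone marrow against IL15tg spleen 9 were higher and 9 lower (11.5% and 8.70% of all genes). The median log2 changes of the 60 were -0.11, 0.10 and 0.02.

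The genes of phagocytosis and of tissue macrophages gave no call in any comparison by their brightest probe sets. This group holds the scavenger receptor Msr1, the mannose receptor Mrc1, the efferocytosis receptor Mertk, lysosomal cathepsins and the pore protein Mpeg1, and 0 of its 14 tested genes were called by limma in each of the 3 comparisons (1, 4 and 3 had an unadjusted p under 0.05, against 25.5%, 10.9% and 34.4% of all genes). Their median log2 changes were -0.09, 0.00 and -0.07. Vcam1, an adhesion molecule of macrophages and endothelium, was at 0.37 in NKDxIL15tg against IL15tg spleen and -0.55 in bone marrow against IL15tg spleen on its brightest probe set (adjusted p = 0.586 and 0.280), while its dimmer 1451314_a_at was higher in both, by 0.43 and 0.45 (adjusted p = 0.0201 and 0.0121), which a floor of 64 took to 0.12 and 0.14 (adjusted p = 0.206 and 0.126). The calls of 1451314_a_at were lost in 7 and in 2 alternatives, in the same order. Vcam1 1415989_at was higher in bone marrow by 0.41 (adjusted p = 0.0407, but 0.0805 without bone marrow replicate 3). This call was lost in 10 alternatives, among them a floor of 64 (0.04, adjusted p = 0.430).

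Among the factors of the myeloid lineage and the Csf1r axis, 3 of 12 tested genes were lower in NKDxIL15tg than in IL15tg spleen (4.87% of all genes). Klf4, a zinc-finger factor needed for Ly6C-positive monocytes, was at 60.4 ± 15.9 in NKDxIL15tg spleen and 189 ± 31.9 in IL15tg spleen (SD, n = 3 each), a log2 change of -1.67 (adjusted p = 0.00152). Irf8, which directs monocyte and dendritic cell development and is also expressed by NK cells, changed by -1.06 (adjusted p = 0.00209). Both were also lower in bone marrow than in IL15tg spleen, by -1.66 and -1.50 (adjusted p = 0.00108 and 0.000238). Spi1 (PU.1) was lower in NKDxIL15tg spleen by -0.45 (adjusted p = 0.0498), which was lost in 10 of the alternatives, among them the replicate block (0.0517). Cebpa and Cebpb, which act with PU.1 in myeloid cells, were at -0.13 and -0.15 in the same comparison (adjusted p = 0.657 and 0.663).

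In the group around the lipopolysaccharide receptor and the partners of Ly86, the partner Cd180 itself did not pass the test. It had 92.0, 130 and 208 in bone marrow, 92.1, 102 and 112 in NKDxIL15tg spleen and 124, 110 and 124 in IL15tg spleen, with a log2 change of 0.19 in bone marrow against IL15tg spleen (adjusted p = 0.602) and -0.23 in the spleens (adjusted p = 0.653). Tlr2, a receptor for bacterial lipoproteins, was higher in both NKDxIL15tg groups, at 121 ± 7.03 in bone marrow and 134 ± 8.78 in NKDxIL15tg spleen, against 55.3 ± 7.06 in IL15tg spleen (SD, n = 3 each). Its log2 changes were 1.28 in NKDxIL15tg spleen (adjusted p = 0.000269) and 1.13 in bone marrow (adjusted p = 0.000430), both against IL15tg spleen. Tlr13, a sensor of bacterial RNA, was at 0.63 (adjusted p = 0.0276) and 0.80 (adjusted p = 0.00694) in the same comparisons, the first of which was lost in 8 alternatives. Lbp, the plasma carrier of lipopolysaccharide, was higher in bone marrow by 0.51 (adjusted p = 0.00784) but by 0.00 with a floor of 64. Tlr4 and Ly96, the core of the receptor, did not pass in any comparison of the main fit. The tested Tlr4 probe sets ran in opposite directions in bone marrow against IL15tg spleen. The brightest, 1418163_at, was at 0.56 (adjusted p = 0.1575) and the dimmer 1418162_at at -0.40 (adjusted p = 0.0555). In that comparison 1418162_at passed at a floor of 64 (0.0369), when the arrays were quantile-normalized (0.0395) and when bone marrow replicate 2 was dropped (0.0310).

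The complement group had 2 of 6 tested genes lower in NKDxIL15tg than in IL15tg spleen (4.87% of all genes). In bone marrow 4 of the 6 were lower than in IL15tg spleen (8.70% of all genes). The largest changes were in Itgax (CD11c) and Itgam (CD11b), integrin chains of the complement receptors that NK cells carry as well. Itgax was at 51.8 ± 8.53 in bone marrow, 60.8 ± 9.74 in NKDxIL15tg spleen and 1704 ± 225 in IL15tg spleen (SD, n = 3 each), log2 changes of -5.04 and -4.81 against IL15tg spleen (adjusted p = 9.04e-07 and 1.12e-06). Itgam was at 39.5, 55.7 and 378 in the same groups (log2 changes -3.26 and -2.77, adjusted p = 2.32e-06 and 4.15e-06). The bone marrow mean of Itgam lay under the filter intensity of 47.7, and with a floor of 64 both changes were -2.56. C1qc is given above. Cfp (properdin), which stabilises the alternative pathway, changed by -0.62 in bone marrow (adjusted p = 0.0407), a call lost in 8 alternatives.

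Of the Fc receptor group, 2 of 6 tested genes were lower in NKDxIL15tg than in IL15tg spleen (4.87% of all genes). Fcgr3 (CD16), the activating IgG receptor that NK cells share with macrophages, had means of 615 in bone marrow, 470 in NKDxIL15tg spleen and 1494 in IL15tg spleen. Its log2 changes against IL15tg spleen were -1.29 in bone marrow (adjusted p = 0.0150, but 0.0638 without IL15tg replicate 1) and -1.76 in NKDxIL15tg spleen (adjusted p = 0.00534). Fcgr2b, the inhibitory IgG receptor, fell by 1.21 and by 1.22 in the same comparisons on its brightest probe set (adjusted p = 0.000143 and 0.000165). Its probe sets 1435477_s_at and 1451941_a_at were at -2.74 and -2.35 in bone marrow and at -2.88 and -2.56 in NKDxIL15tg spleen. With a floor of 64 the value of 1451941_a_at in NKDxIL15tg spleen was -1.28. Its probe set 1455332_x_at was at -0.43 and -1.20 and did not pass (adjusted p = 0.566 and 0.176), while the other tested ones did. That probe set had 104, 144 and 581 in bone marrow, the last value being replicate 3, and without this array it was at -1.18 and -1.20 and passed (adjusted p = 0.00181 and 0.00101). Sirpa, an inhibitory receptor of myeloid cells, was higher in bone marrow by 0.69 (adjusted p = 0.0124, but 0.0532 without IL15tg replicate 1), and its other tested probe set was at -0.02 (adjusted p = 0.873).

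Of the 12 tested monocyte genes, 1 was lower in NKDxIL15tg than in IL15tg spleen (4.87% of all genes). In bone marrow 5 were higher and 1 lower than in IL15tg spleen (11.5% and 8.70% of all genes). Cx3cr1, the fractalkine receptor of patrolling monocytes and of mature NK cells, was the lower one in both, at 25.9 to 45.2 in bone marrow, 26.9 to 60.4 in NKDxIL15tg spleen and 903 to 1051 in IL15tg spleen, with log2 changes of -4.86 and -4.66 (adjusted p = 1.76e-05 and 2.78e-05). All its bone marrow values lay under the filter intensity of 47.7, so the size of the change is uncertain, and with a floor of 64 both changes were -3.89. Ccr2, the chemokine receptor by which monocytes leave the marrow, was higher in bone marrow by 0.48 (adjusted p = 0.0149), a call lost without IL15tg replicate 1 (0.0615) or 3 (0.0506). Its probe set 1421187_at was higher in both NKDxIL15tg groups, by 1.03 in bone marrow and 1.07 in NKDxIL15tg spleen (adjusted p = 0.00928 and 0.0116), while the brightest one did not pass in the spleens (0.37, adjusted p = 0.0580) and 1460067_at passed in neither. The brightest one passed in the spleens in some alternatives, such as a floor of 64 (0.0328) or without bone marrow replicate 3 (0.0220). Probe set 1421188_at was higher in bone marrow by 0.75, a call lost in 1 alternative. In the spleens it was at 0.55 without a call, but passed in some alternatives, such as without bone marrow replicate 3 (0.0320). Ms4a6c, a membrane protein of monocytes, did not pass on its brightest probe set, and its dimmer 1457725_at was lower in bone marrow and in NKDxIL15tg spleen by -0.70 and -0.54 (adjusted p = 0.0112 and 0.0420), both of which a floor of 64 took to -0.08 without a call. The call in NKDxIL15tg spleen was lost in 10 alternatives. The other higher genes were Lyz1, given above, and Mgst1, Plac8 and Fcnb, at 2.81, 1.89 and 0.89 (adjusted p = 0.00647, 0.0388 and 0.0320). The call of Plac8 was lost in 8 alternatives, among them that without bone marrow replicate 3 (0.0574), and that of Fcnb in 7. Without that replicate Fcnb was at 0.59 and kept its call (adjusted p = 0.0242). Mgst1 was at 21.1 to 38.8 in IL15tg spleen, under the filter intensity, and with a floor of 64 its change was 1.70 and did not pass (adjusted p = 0.0566). Mgst1 encodes a membrane-bound glutathione transferase and Fcnb a ficolin of myeloid cells. The neutrophil markers given with Lyz2 were highest in the same bone marrow arrays, and their part in these results was not tested.

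**Figure D5:**
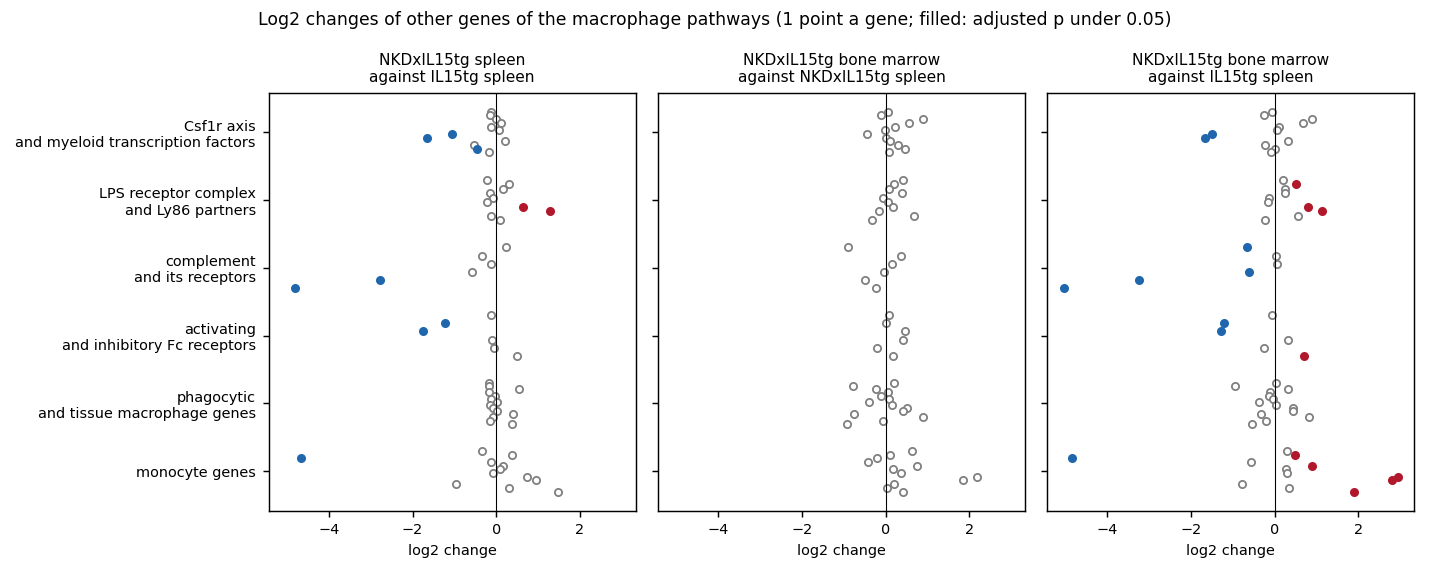
Log2 change of the 60 tested genes of the 6 macrophage and monocyte lists in each of the 3 comparisons, with 1 point a gene, filled where the adjusted p was under 0.05. The filled points lie in the comparisons with IL15tg spleen, and the phagocytic and tissue macrophage list has 0 of 14 in each comparison.

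The genes whose pattern over the 9 arrays was most like the mean log2 profile of the 7 tested members were Map4k5 (Pearson r = 0.972), Cd40, Ctxn1, Ncam1, Elf4, Mccc1, Cpne1, 4833418N02Rik, Gstm5 and Mpeg1 (r = 0.954). All 10 had their highest value on bone marrow replicate 3, where the profile also peaks. Among the members in the profile, only Csf1r (1419872_at) and Lyz2 had their highest value on that array. The peak is therefore not shared by Adgre1, C1qa, C1qb, Ly86 and Fcgr1. Over the 8 arrays without that replicate, the 10 most alike were Zfp408 (r = 0.985), Emilin1, Dclre1a, Nxph3, Mccc1, Slc4a8, 1700003E16Rik, Ptprk, Acsl6 and Cbln1 (r = 0.935), and Mccc1 was the 1 gene in both sets. All genes were read on the same arrays and share each array's brightness, so these correlations are a description and carry no p.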

How the data were processed

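NK cells were sorted and their RNA read on 9 Affymetrix arrays, and per the labels' protocols 150 ng of total RNA went through 2 cycles of amplification. Each deposited value is a linear intensity, 1 for a probe set on an array; summarisation and scaling are not given in the sources used here. Medians of log2 intensity, computed from the deposited values, differed by at most 0.20, under the 0.3 set for rescaling, so no scaling was added. Intensities under 16 (4.36% of values) were set to 16. The 64 control probe sets were left out, and 34945 probe sets carried 1 symbol, 932 several and 9160 none in the platform annotation. Probe sets with a mean log2 intensity at or above the 40th percentile (5.58) were tested.

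With limma 3.58.1 (R 4.3.3), 3 group means were fitted to the 9 arrays together and their differences tested 2-sided, with Benjamini-Hochberg adjustment over the 27022 tested probe sets and a threshold of 0.05. Errors of log2 changes are standard errors. The members and gene lists were chosen with earlier results of these data known. All members were described, and of each list up to 4 called genes with the largest change, and the 10 genes most like the members' mean profile; Csf1, Cebpa, Cebpb, Tlr4, Ly96, Cd180, S100a8, Vcam1 and Ms4a6c were named after their values were seen. A gene of a list was represented by its probe set of highest mean; where another tested probe set of the gene differed in its call, this is given. On simulated data with added changes in 50 probe sets per fold, 2-fold changes were called in 60% (NKDxIL15tg against IL15tg spleen), 66% (bone marrow against NKDxIL15tg spleen) and 56% (bone marrow against IL15tg spleen), and 4-fold changes in 86%, 88% and 88%. The same setting was used for all comparisons, so their percentages differ only by the draw. The simulated noise was normal with no array standing apart, and far fewer probe sets were changed than were called against IL15tg spleen. These rates are thus no measure of power in the data. The 3 arrays per group limit the precision.

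Deviations from the group means of arrays with the same replicate number correlated at 0.16, 0.16 and 0.12 between the spleen groups and at 0.38, 0.26 and 0.23 between bone marrow and NKDxIL15tg spleen. Between bone marrow and IL15tg spleen they were 0.17, -0.02 and 0.24. Arrays with different numbers were not compared, so these values do not settle whether the numbers pair the arrays. The main fit took the arrays as unpaired, and the block was run as an alternative. The alternatives were a floor of 64, no filter, a common 75th percentile, quantile normalization, a fit on the 6 arrays of a comparison, the replicate number as a block, and leaving out each array in turn.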

Additional observations from a re-analysis of the deposited data

How the results depend on the processing

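Of 450 alternative values of the 30 log2 changes of tested member probe sets (15 settings each), 421 kept their direction and their side of the threshold, 21 changed sign without a call, 6 lost a call (Ly86 in NKDxIL15tg against IL15tg spleen) and 2 gained one (C1qa in bone marrow against IL15tg spleen); 0 called values reversed. In NKDxIL15tg against IL15tg spleen the count of members called was 0 with a floor of 64 and 0 without the filter, and 0 to 1 leaving out 1 array at a time, while the count over all probe sets was 1809 to 5483 and that of the macrophage list genes 8 to 14. In bone marrow against NKDxIL15tg spleen the count over all probe sets was 4 with a floor of 64, 2 without the filter and 23 with the replicate block, and 1 to 15 leaving out 1 array; the list genes had 1 call with the replicate block and 0 leaving out 1 array. In bone marrow against IL15tg spleen leaving out 1 array gave 3089 to 6342 probe sets, 2 to 3 members and 12 to 21 list genes. Beside these counts, Spi1 (adjusted p = 0.0517) and Ccr2 1421188_at in the spleens, which then passed (adjusted p = 0.0255), the replicate block changed no call among the log2 changes recomputed. The cause of these shifts was not tested. The fits with 1 array fewer hold fewer samples. Their upper counts over all probe sets against IL15tg spleen, 5483 and 6342, lay above the main fit's 3725 (NKDxIL15tg spleen) and 5764 (bone marrow). Of 98 further log2 changes, those of the called list genes and of the other probe sets named, 72 kept their side of the threshold under all alternatives. With 3 arrays a group, a 1.5-fold change was called in 16% to 26% of simulated cases. Differences of that size may have been missed. How often is not known, because the share of changed probe sets and the noise in the simulation differed from the data.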
